A study of Mus musculus with 8 samples.

Results

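Gpnmb and 9 genes of pigment cells (Dct, Tyrp1, Tyr, Pmel, Mlana, Slc45a2, Mitf, Kit and Ednrb) were followed through hair follicle stem cells that had lost the transcription factors NFIB, NFIX or both. The 10 genes were taken by symbol from a table of 46517 genes, and each symbol stood on 1 row. Gpnmb was chosen by its higher level in cells that lost NFIB, so its values for NFIB loss are a description and carry no test. The other 9 were picked for their function in melanocytes.

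The data were 8 libraries of RNA sequencing from cells of the hair follicle bulge, taken from the back of males aged 70 days after birth, when hair growth rests. NFIB/X-dKO mice (animals 33 and 36) carried Sox9-CreER with both alleles of each gene floxed (NFIBfl/fl and NFIXfl/fl). NFIB-cKO mice (81 and 85) carried Sox9-CreER and NFIBfl/fl. NFIX-cKO mice (32 and 88) carried Sox9-CreER and NFIXfl/fl, and also 1 floxed NFIB allele (NFIBfl/+). WT mice (34 and 82) were NFIBfl/fl and NFIXfl/fl and had no Cre. All 4 groups carried the reporter R26-YFPfl/fl, and a tamoxifen-dependent Cre under Sox9, a gene of the follicle epithelium, drove the deletions. Every sort took cells with integrin alpha 6 and CD34 and without Sca-1, with a further gate on YFP in the 3 knockout groups and none in WT. The Cre, the gate and the gene deletions therefore cannot be told apart in a comparison with WT.

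Melanocytes derive from the neural crest, and in mice their stem cells sit beside the hair follicle stem cells in the bulge and the hair germ. MITF is the main transcription factor of the lineage and binds the M-box in the promoters of the melanin enzyme genes. Follicle stem cells signal to these neighbours, and NFIB in the follicle has been described in mice as a brake on them that acts through endothelin 2. GPNMB is a membrane glycoprotein related to PMEL, found in melanosomes and lysosomes, and is also made by macrophages, dendritic cells and osteoclasts.

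Total transcript levels of the targeted genes did not check the labels, because a conditional deletion can leave the rest of a transcript in place. Nfib stood at 376.85 and 388.57 TPM in NFIB/X-dKO, 293.27 and 232.80 TPM in NFIB-cKO, 199.97 and 147.91 TPM in NFIX-cKO and 229.56 and 208.98 TPM in WT. TPM is a transcript level scaled for transcript length and library size. By limma on log2(TPM + 1), Nfib was 0.70 ± 0.13 higher in NFIB/X-dKO and NFIB-cKO than in NFIX-cKO and WT (adjusted p = 0.0405). It was 1.15 ± 0.18 higher in NFIB/X-dKO than in NFIX-cKO (adjusted p = 0.0467). Its differences from WT, 0.80 in NFIB/X-dKO and 0.25 in NFIB-cKO, did not pass (adjusted p = 0.0736 and 0.649). The cause was not tested. Nfix ran from 123.35 to 158.02 TPM over the 8 libraries. Reads on Esr1, the gene whose ligand-binding part CreER carries, gave 12.55 to 32.36 TPM in the 6 knockout libraries and 0.47 and 0.33 TPM in WT, which matches the Cre genotypes. The stem cell gene Cd34 stood at 810.74 to 1143.56 TPM in all libraries. Expected counts, used for 5 libraries, summed to between 57173266 and 66854625, and the depth of NFIB-cKO 81, WT 34 and WT 82 is unknown.

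The members lie apart in the mouse genome (mm10). Gpnmb covers bases 49036546 to 49070929 of chromosome 6 on the plus strand, and Mitf lies on the same chromosome and strand at 97807052 to 98021349. The 250 bases before the start of Gpnmb and of the 3 melanin enzyme genes are given here. They differ in the M-box, a site that MITF binds. Sequences are from RefSeq (GRCm38.p6), 5′ to 3′ on the strand of the gene, and capitals mark the M-box core TCATGTG or its reverse complement. Each window ends at the transcript start in the RefSeq table, which can differ from the gene start in GENCODE. The Gpnmb window ends before the GENCODE start given above, and the Tyrp1 window runs past the GENCODE start of Tyrp1 at 80834123, so its M-box core lies inside the GENCODE gene. The windows span chr6:49036268-49036517 (plus strand) for Gpnmb, chr14:118052247-118052496 (minus) for Dct, chr4:80833963-80834212 (plus) for Tyrp1 and chr7:87493513-87493762 (minus) for Tyr.
Gpnmb: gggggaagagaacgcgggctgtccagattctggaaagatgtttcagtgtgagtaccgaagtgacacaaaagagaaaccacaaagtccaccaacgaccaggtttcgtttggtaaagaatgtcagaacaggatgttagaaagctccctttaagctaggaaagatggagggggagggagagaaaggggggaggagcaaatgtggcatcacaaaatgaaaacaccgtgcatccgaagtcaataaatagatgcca
Dct: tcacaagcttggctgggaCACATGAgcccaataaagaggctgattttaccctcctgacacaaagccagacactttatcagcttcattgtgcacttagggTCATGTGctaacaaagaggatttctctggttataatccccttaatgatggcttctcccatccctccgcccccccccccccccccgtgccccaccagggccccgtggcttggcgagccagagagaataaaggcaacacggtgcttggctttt
Tyrp1: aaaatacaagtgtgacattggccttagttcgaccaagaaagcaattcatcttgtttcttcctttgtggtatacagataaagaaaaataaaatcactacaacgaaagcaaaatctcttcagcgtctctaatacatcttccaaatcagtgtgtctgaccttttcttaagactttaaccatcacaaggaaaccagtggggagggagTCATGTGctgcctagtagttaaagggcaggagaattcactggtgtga
Tyr: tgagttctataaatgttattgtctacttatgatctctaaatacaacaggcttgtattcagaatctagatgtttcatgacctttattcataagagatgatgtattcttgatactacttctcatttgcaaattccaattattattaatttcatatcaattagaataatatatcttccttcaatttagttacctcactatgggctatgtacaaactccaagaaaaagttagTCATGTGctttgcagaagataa
Dct held 2 cores, whose first bases lie at -232 and -151 from the start, Tyrp1 held 1 at -47 and Tyr 1 at -22. Gpnmb held 0 in this window. Among 32851 promoter windows of the same length, 3.25% held the core on either strand. The table held windows for 7 of the 10 members, and Mitf (3 windows), Kit and Ednrb also held 0 cores.

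The E-box CACGTG, the site shared by lysosomal genes that TFEB and TFE3 bind, was in 6.02% of all windows and in none of the members' windows. The core of the nuclear factor I site, TTGGC on either strand, was in 41.5% of all windows. Dct had 3 such cores, Ednrb 2, Tyrp1 1 and 1 of the Mitf windows 1, while Gpnmb, Tyr and Kit had 0. The full site, that core facing its reverse complement over 5 bases, was in 0.0365% of windows and in none of theirs. The map of motif matches places these matches relative to each start. A match of letters is no evidence of binding, and a window without one says nothing of sites elsewhere.

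**Figure D1:**
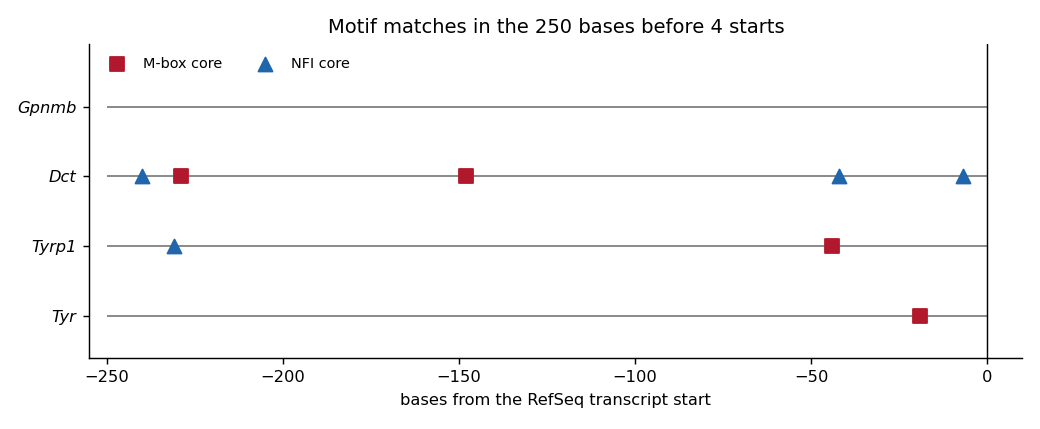
Motif matches in the 250 bases before the transcript starts of Gpnmb, Dct, Tyrp1 and Tyr, with distance to the start in bases on the horizontal axis, squares for the M-box core and triangles for the nuclear factor I core. Gpnmb has neither, Dct has 2 squares and 3 triangles, Tyrp1 has 1 of each and Tyr has 1 square.

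Gpnmb had 80.58 and 86.76 TPM in NFIB/X-dKO, 65.35 and 59.79 TPM in NFIB-cKO, 6.85 and 17.25 TPM in NFIX-cKO, and 3.86 and 8.27 TPM in WT. All 4 libraries from NFIB-deleted mice thus lay above all 4 that retained NFIB, and the lowest of the first, 59.79 TPM, stood well clear of the highest of the others, 17.25 TPM. The group means were 83.7 ± 4.37 TPM in NFIB/X-dKO, 62.6 ± 3.93 in NFIB-cKO, 12.1 ± 7.35 in NFIX-cKO, with 6.07 ± 3.12 in WT (SD, n = 2 each). Relative to WT, the mean was 13.8 times as high in NFIB/X-dKO, 10.3 times in NFIB-cKO and 1.99 times in NFIX-cKO. On the log2(TPM + 1) scale the differences that chose the gene were 3.66 between NFIB/X-dKO and WT, 3.24 between NFIB-cKO and WT, and 2.82 between NFIB/X-dKO and NFIX-cKO.

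The libraries carry animal numbers in the 30s or the 80s, and the labels do not say what these mean. Both NFIB/X-dKO libraries are in the 30s and both NFIB-cKO libraries in the 80s, while NFIX-cKO and WT have 1 in each. Within the 30s the Gpnmb difference between NFIB/X-dKO and WT was 4.12, and within the 80s that between NFIB-cKO and WT was 2.78. In both NFIX-cKO and WT the 80s library was the higher, by 2.52 times in NFIX-cKO and 2.14 times in WT.

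In the counts, Gpnmb had 9590 and 10648 expected counts in NFIB/X-dKO, 8262 in NFIB-cKO 85, and 840 and 2344 in NFIX-cKO, so counting error was small beside the spread between animals. Its difference between NFIB/X-dKO and NFIX-cKO was 2.56 on the log2 scale in the counts.

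The rule did not use 2 of the Gpnmb comparisons, and these were tested with limma and Benjamini-Hochberg adjustment over 15434 genes. NFIX-cKO stood 0.83 ± 0.43 above WT (log2 difference ± SE, adjusted p = 0.776), with 95% bounds of -0.17 and 1.84, and did not pass. The ranges of these 2 groups overlapped, since the lower NFIX-cKO library, at 6.85 TPM, lay under the higher WT library, at 8.27 TPM. Those 2 libraries belong to different number series. NFIX-cKO stood 0.69 above WT within the 30s and 0.98 within the 80s. With the number series as a covariate the difference was 0.83 and did not pass (limma, adjusted p = 0.0766). The difference was 0.23 without NFIX-cKO 88 and 1.44 without NFIX-cKO 32, and 0.37 without WT 34 and 1.30 without WT 82. NFIB/X-dKO stood 0.41 ± 0.43 above NFIB-cKO (adjusted p = 0.551, bounds -0.59 and 1.42). With only those 4 libraries in the fit the same difference passed (0.41, adjusted p = 0.0467), and with the animal number series as a covariate it was 1.49 (adjusted p = 0.0579). The groups did not overlap, but each holds 1 number series, so genotype and number series cannot be told apart there.

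**Figure D2:**
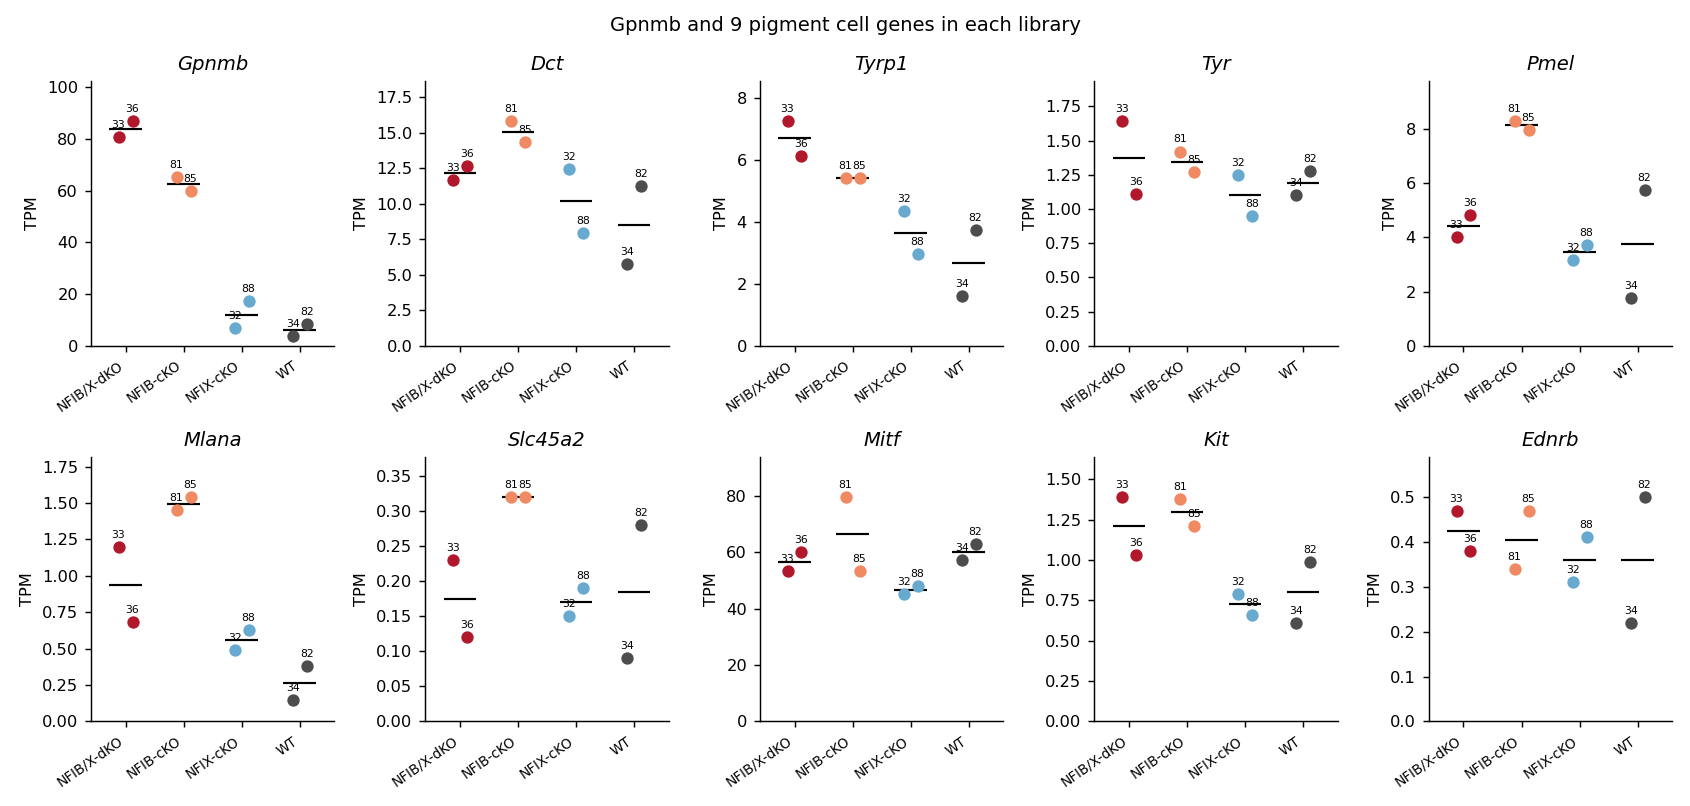
TPM of Gpnmb and the 9 pigment cell genes in each of the 8 libraries, on linear axes that start at 0, with the animal number beside each point and a bar at the mean of 2 libraries. Gpnmb is at 59.79 to 86.76 TPM in the 4 NFIB-deleted libraries and at 3.86 to 17.25 TPM in the other 4, while Mitf, Tyr, Dct, Pmel, Ednrb and Slc45a2 overlap between them.

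The pigment genes differed far less. Of the 9, 7 reached 1 TPM in at least 2 libraries and entered the test, and 0 of the 7 passed in NFIB-deleted against NFIB-retaining groups, where 2.48% of all tested genes passed. That comparison sets the mean of NFIB/X-dKO and NFIB-cKO against the mean of NFIX-cKO and WT, 4 libraries against 4. Mlana and Kit entered the test only through NFIB-deleted libraries, and Ednrb and Slc45a2 stayed under 1 TPM in every library. At an unadjusted p under 0.05, 4 of the 7 were counted by limma (Tyrp1, Mlana, Dct and Pmel), all higher in the NFIB-deleted groups, beside 15.4% of all tested genes. Bulk libraries cannot tell more cells of a type apart from more RNA per cell.

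Dct was the most abundant of the 6 melanosome genes. Dct, a dopachrome tautomerase, had 11.65 and 12.66 TPM in NFIB/X-dKO, 15.79 and 14.36 in NFIB-cKO, 12.43 and 7.91 in NFIX-cKO, and 5.76 and 11.24 in WT. The library NFIX-cKO 32 lay within the range of the NFIB-deleted libraries. The NFIB-deleted groups stood 0.54 ± 0.22 above the NFIB-retaining groups (adjusted p = 0.308, bounds 0.02 and 1.07), which did not pass. Within the 30s the difference was 0.46 and within the 80s 0.62, and it was 0.33 without WT 34 and 0.76 without WT 82.

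Tyrp1, the tyrosinase-related protein of eumelanin synthesis, had 7.23 and 6.13 TPM in NFIB/X-dKO, 5.42 and 5.41 in NFIB-cKO, 4.33 and 2.96 in NFIX-cKO, and 1.60 and 3.74 in WT. All 4 NFIB-deleted libraries were above all 4 others, though by a narrow gap next to that of Gpnmb. The difference of 0.80 ± 0.22 did not pass in limma (adjusted p = 0.134, bounds 0.28 and 1.32). It was 1.04 within the 30s and 0.57 within the 80s, and without WT 82 it was 1.02 and passed (adjusted p = 0.0479). Its ratio of means was 1.91 for NFIB-deleted over NFIB-retaining groups, against 8.07 for Gpnmb.

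Tyr, the enzyme of the first and limiting step of melanin synthesis, had 1.64 and 1.11 TPM in NFIB/X-dKO, 1.42 and 1.27 in NFIB-cKO, 1.25 and 0.95 in NFIX-cKO, and 1.10 and 1.28 in WT. The groups overlapped, and the difference of 0.14 ± 0.16 did not pass (adjusted p = 0.745, bounds -0.24 and 0.51).

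Pmel forms the fibrils on which melanin is laid down. It had 4.03 and 4.83 TPM in NFIB/X-dKO, 8.28 and 7.98 in NFIB-cKO, 3.18 and 3.72 in NFIX-cKO, and 1.75 and 5.75 in WT. NFIB-cKO was above every other library, while WT 82 was above both NFIB/X-dKO libraries. The difference of 0.68 ± 0.28 between NFIB-deleted and NFIB-retaining groups did not pass (adjusted p = 0.300, bounds 0.04 and 1.33). Without WT 82 it was 1.01 and passed (adjusted p = 0.0311), and without WT 34 it was 0.36 (adjusted p = 0.199).

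Mlana, a small melanosome protein, had 1.2 and 0.68 TPM in NFIB/X-dKO, 1.45 and 1.54 in NFIB-cKO, 0.49 and 0.63 in NFIX-cKO, and 0.15 and 0.38 in WT. It rested on few reads: 25 and 15 expected counts in NFIB/X-dKO, 38 in NFIB-cKO 85, and 11 and 16 in NFIX-cKO. The 95% Poisson bounds, which cover counting error only, were 8.4 to 24.7 for the 15 counts of NFIB/X-dKO 36 and 9.1 to 26.0 for the 16 counts of NFIX-cKO 88. Those libraries cannot be told apart at this depth. The difference of 0.64 ± 0.17 between NFIB-deleted and NFIB-retaining groups did not pass (adjusted p = 0.123, bounds 0.24 and 1.05). Its ratio of means was 2.95 for NFIB-deleted over NFIB-retaining groups, above that of Tyrp1.

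Slc45a2, a transporter of the melanosome membrane, had 0.23 and 0.12 TPM in NFIB/X-dKO, 0.32 in each NFIB-cKO library, 0.15 and 0.19 in NFIX-cKO, and 0.09 and 0.28 in WT. These levels stood on 14 to 41 expected counts in the 5 libraries with counts, and NFIB-deleted and NFIB-retaining libraries overlapped.

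Mitf had the highest mean level of the 10 genes over the 8 libraries. It had 53.36 and 60.11 TPM in NFIB/X-dKO, 79.61 and 53.49 in NFIB-cKO, 45.27 and 48.08 in NFIX-cKO, and 57.12 and 62.95 in WT. Both WT libraries lay above NFIB/X-dKO 33 and NFIB-cKO 85, and the difference of 0.20 ± 0.14 between NFIB-deleted and NFIB-retaining groups did not pass (adjusted p = 0.563, bounds -0.13 and 0.52). Mitf has several promoters, of which the M form belongs to melanocytes, and the gene totals used here do not separate them.

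Kit and Ednrb encode the receptors through which melanocytes receive Kit ligand and endothelins. Kit had 1.39 and 1.03 TPM in NFIB/X-dKO, 1.38 and 1.21 in NFIB-cKO, 0.79 and 0.66 in NFIX-cKO, and 0.61 and 0.99 in WT. The 4 NFIB-deleted libraries were above the other 4 by a gap of 1.03 to 0.99 TPM at its narrowest, and the difference of 0.36 ± 0.16 did not pass (adjusted p = 0.355, bounds -0.02 and 0.74). Ednrb had 0.47 and 0.38 TPM in NFIB/X-dKO, 0.34 and 0.47 in NFIB-cKO, 0.31 and 0.41 in NFIX-cKO, and 0.22 and 0.50 in WT, so the lowest and the highest library were both WT.

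Besides Gpnmb, 3 of the 9 pigment genes (Tyrp1, Mlana and Kit) had all 4 NFIB-deleted libraries above all 4 NFIB-retaining libraries, a pattern found in 6.84% of all tested genes. Mlana and Kit could be tested only because of their NFIB-deleted libraries, so this count is a description. Over the 7 tested pigment genes the median difference was 0.54, beside 0.10 over all tested genes. The plot of differences shows each with its interval.

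**Figure D3:**
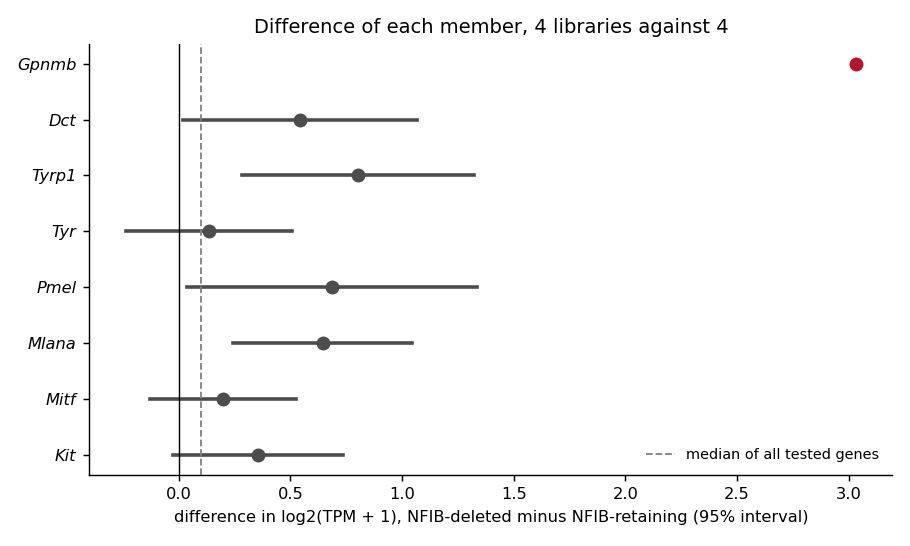
Difference in log2(TPM + 1), NFIB-deleted minus NFIB-retaining groups, for Gpnmb and the 7 tested pigment genes, with 95% intervals from limma for the pigment genes and none for Gpnmb, which was chosen for this difference. Points of the pigment genes run from 0.14 for Tyr to 0.80 for Tyrp1 and that of Gpnmb is at 3.03, and the dashed line is the median of all tested genes at 0.10.

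In the single comparisons the outcome was similar. In NFIB/X-dKO against WT, where 2.88% of all genes passed, 0 of the 7 pigment genes did, with 2 at an unadjusted p under 0.05 (16.8% of all genes). Tyrp1 had the largest difference on the log2(TPM + 1) scale, 1.13 ± 0.31 (adjusted p = 0.130), and its mean was 2.50 times that in WT. Mlana, at 0.15 and 0.38 TPM in WT, had a mean 3.55 times as high in NFIB/X-dKO and 5.64 times in NFIB-cKO. Without WT 34 the Tyrp1 difference was 0.69 and without WT 82 it was 1.56. In NFIB-cKO against WT, where 0.719% of all genes passed, 0 of the 7 did, with 4 at an unadjusted p under 0.05 (12.6% of all genes). Pmel differed there by 1.08 ± 0.39 (adjusted p = 0.297), Mlana by 0.99 ± 0.24 (adjusted p = 0.134), Tyrp1 by 0.87 ± 0.31 (adjusted p = 0.296) and Dct by 0.82 ± 0.31 (adjusted p = 0.336). Without WT 82 the Pmel difference was 1.73 and passed (adjusted p = 0.0413), and without WT 34 it was 0.44. Without WT 34 the Tyrp1 difference was 0.44 and that of Dct 0.39. These comparisons share the WT libraries. Mlana is in both counts at an unadjusted p under 0.05 and entered the test only through NFIB-deleted libraries, so its part there is a description.

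WT 34 and WT 82 differed from each other about as much as some groups did. WT 82 had 3.29 times the Pmel, 2.34 times the Tyrp1, 1.95 times the Dct and 2.53 times the Mlana of WT 34, and 1.10 times the Mitf. The sum of the 6 melanosome genes Dct, Tyrp1, Tyr, Pmel, Mlana and Slc45a2 was 25.98 and 25.53 TPM in NFIB/X-dKO, 32.68 and 30.88 in NFIB-cKO, 21.83 and 16.36 in NFIX-cKO, and 10.45 and 22.67 in WT. WT 34 was thus the lowest library, and WT 82 stood between NFIX-cKO 32 and the NFIB/X-dKO libraries. The NFIB-deleted libraries all lay above the NFIB-retaining ones in this sum (25.53 to 32.68 against 10.45 to 22.67 TPM), with no test.

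In NFIX-cKO against WT, where 0.149% of all genes passed, 0 of the 7 pigment genes passed and 0 had an unadjusted p under 0.05, as 6.81% of all genes had. In NFIB/X-dKO against NFIX-cKO, which share the Cre and the YFP gate, 0 of the 7 passed by limma, where 0.784% of all genes did, with 1 at an unadjusted p under 0.05 (14.5% of all genes). On expected counts 0 of 9 passed by edgeR, where 0.322% of all genes did, and 0 of 9 by DESeq2, where 4.37% did. Each tool had 1 (Tyrp1) at an unadjusted p under 0.05, beside 14.7% of all genes in edgeR and 8.48% in DESeq2. The count difference of Tyrp1 was 0.58 in edgeR (adjusted p = 0.287) on 582 and 546 counts in NFIB/X-dKO and 378 and 340 in NFIX-cKO. Dct, with 933 and 1070 counts in NFIB/X-dKO and 1088 and 774 in NFIX-cKO, differed by 0.03 (adjusted p = 0.944). In NFIB/X-dKO against NFIB-cKO and in the non-additive contrast, where 0.227% and 0.117% of all genes passed, 0 of the 7 passed and 0 had an unadjusted p under 0.05, as 17.2% and 9.43% of all genes had. The non-additive contrast is the NFIB/X-dKO difference from NFIB-cKO minus the NFIX-cKO difference from WT. Only the second difference holds the Cre, the YFP gate and the 1 floxed NFIB allele. The first alone sets 1 animal number series against the other. These therefore cannot be told apart from a non-additive effect, and Esr1 differed by -4.87 in this contrast (limma, adjusted p = 0.0151).

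Ratios within a library do not depend on its scaling. Gpnmb was chosen by its rise with NFIB loss, so its ratios in NFIB-deleted libraries are a description with no test. Gpnmb over Dct was 6.92 and 6.85 in NFIB/X-dKO, 4.14 and 4.16 in NFIB-cKO, 0.551 and 2.18 in NFIX-cKO, and 0.670 and 0.736 in WT. WT 34 and WT 82, whose Gpnmb and Dct each differed about as much, had nearly the same ratio. Gpnmb over Pmel was 20.0 and 18.0 in NFIB/X-dKO, 7.89 and 7.49 in NFIB-cKO, 2.15 and 4.64 in NFIX-cKO, and 2.21 and 1.44 in WT. Gpnmb over Tyrp1 was 11.1 and 14.2 in NFIB/X-dKO, 12.1 and 11.1 in NFIB-cKO, 1.58 and 5.83 in NFIX-cKO, and 2.41 and 2.21 in WT.

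NFIX-cKO 88 had 2.52 times the Gpnmb of NFIX-cKO 32 but 0.636 times its Dct and 0.684 times its Tyrp1. Tyr (0.76 times) and Kit (0.835 times) were also lower in NFIX-cKO 88. Pmel (1.17 times), Mlana (1.29), Slc45a2 (1.27), Ednrb (1.32) and Mitf (1.06) were higher. The pigment genes thus moved both ways between these 2 animals. Between pigment genes the ratios were narrower. Tyrp1 over Dct was 0.621 and 0.484 in NFIB/X-dKO, 0.343 and 0.377 in NFIB-cKO, 0.348 and 0.374 in NFIX-cKO, and 0.278 and 0.333 in WT. Pmel over Dct was 0.346 and 0.381 in NFIB/X-dKO, 0.524 and 0.556 in NFIB-cKO, 0.256 and 0.470 in NFIX-cKO, and 0.304 and 0.512 in WT.

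**Figure D4:**
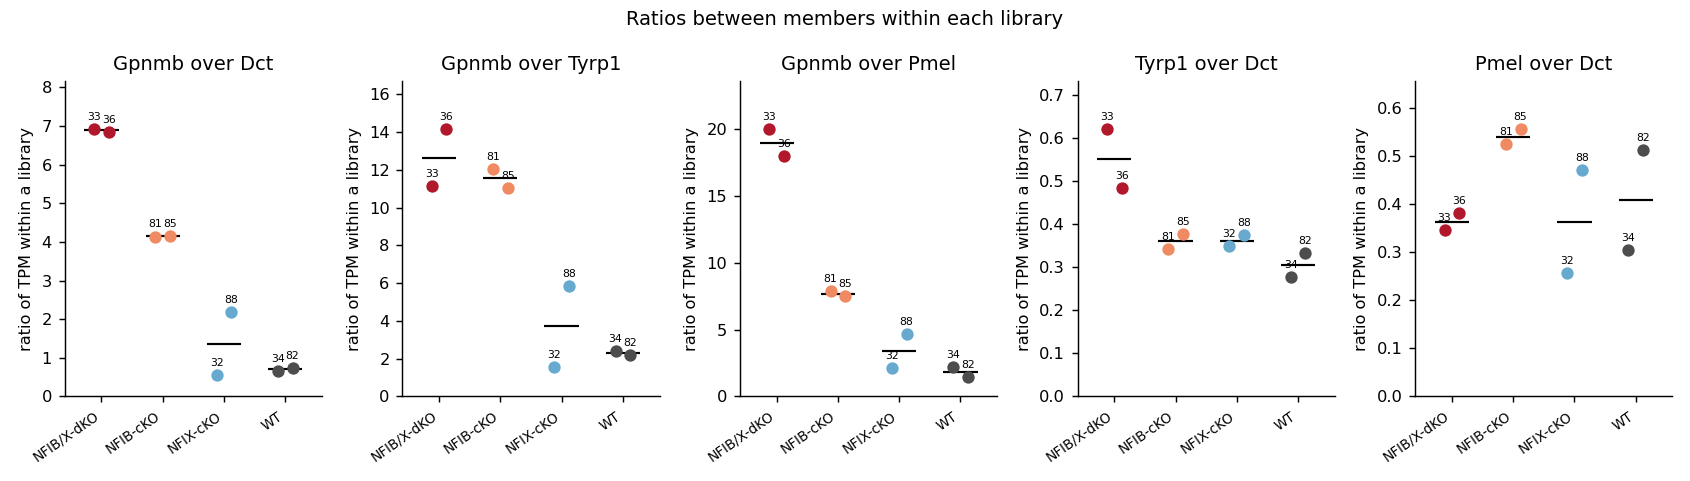
Ratios of TPM between members within each library, on linear axes that start at 0, with the animal number beside each point and a bar at the mean of 2 libraries. The ratios of Gpnmb to Dct are 4.14 to 6.92 in the 4 NFIB-deleted libraries and 0.551 to 2.18 in the other 4, whereas Pmel over Dct overlaps between them.

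As a description over the 8 libraries, which share groups and number series, the level of Gpnmb correlated with Tyrp1 (Pearson r = 0.851 of log2(TPM + 1)), Mlana (0.850) and Kit (0.812) more than with Dct (0.668), Pmel (0.659), Tyr (0.432) or Mitf (0.329). The correlation of Tyrp1 ranked 320 and that of Mitf 4469 among 12913 genes. Among themselves, Dct and Tyrp1 gave 0.862, Dct and Pmel 0.846 and Pmel and Slc45a2 0.872.

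The genes most like Gpnmb were taken by correlation over the 8 libraries from 1208 genes with a mean of at least 5 TPM in some group and a range of at least 1 on the log2 scale over the groups. In order they were Egfl6 (r = 0.980), Robo2, Atp12a, Elk3, Epha4, Fam84a, Fam110b, Cxcl14, Tnfrsf11b and Nudt4 (0.966). The most abundant was the chemokine gene Cxcl14, at 8446 to 10234 TPM in NFIB-deleted and 1978 to 4978 TPM in NFIB-retaining libraries. Egfl6 had 259.90 to 292.13 TPM in NFIB-deleted and 85.56 to 142.96 TPM in NFIB-retaining libraries. Nudt4, the last of them, stood above Tyrp1 (0.851), the highest pigment gene, and 4 of the 10 were also in the top 10 by Spearman correlation.

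The genes most like the 6 melanosome genes came from 1645 genes. These had a mean of at least 1 TPM in some group and the same range of at least 1 on the log2 scale. Predicted genes (Gm and Rik names) were left out of both lists. In order the genes were Ptgds (r = 0.991), Tmem51, Mir27b, C1ra, Car2, C1s1, Irx4, Srsf12, Krt8 and Lrrc4 (0.938). Ptgds encodes a prostaglandin D synthase that melanocytes are known to express. It had 3.95 to 6.61 TPM in NFIB-deleted and 0.85 to 3.36 TPM in NFIB-retaining libraries. The Gpnmb list and this list shared no gene, but lists this short from 1208 and 1645 genes can easily share none. Car2 and Srsf12 reached at most 3.92 and 3.74 TPM, under the floor of the Gpnmb list, so they could not enter it. Whether the patterns of Gpnmb and the melanosome genes differ was not tested by this comparison of lists.

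Other genes of the lineage were low. Of 7 genes largely restricted to melanocytes (Sox10, Pax3, Oca2, Slc24a5, Trpm1, Gpr143 and Mc1r), 6 stayed under 1 TPM in every library and 0 entered the test. Sox10, a transcription factor of neural crest cells, ran from 0.28 to 0.85 TPM, Slc24a5 from 0.38 to 1.01 TPM, and Oca2 was at 0 in 3 of the 8 libraries. The sum of the 7 was 2.97 to 3.12 TPM in NFIB/X-dKO, 3.01 to 3.58 in NFIB-cKO, 2.02 to 2.07 in NFIX-cKO and 2.12 to 2.76 in WT. Both NFIB-deleted groups thus lay above both others in this sum, by a narrow gap and with no test. Of 14 melanocyte genes beyond the members, which include these 7, 6 entered the test and 0 passed in NFIB-deleted against NFIB-retaining groups. Their median difference was 0.26, beside 0.10 over all genes. Rab38, which carries cargo to the melanosome, had the highest level, at 23.30 to 62.08 TPM (difference 0.30 ± 0.21, adjusted p = 0.559). Mlph, which links melanosomes to myosin, differed by 0.36 ± 0.16 (adjusted p = 0.363), and Myo5a, that myosin, by 0.30 ± 0.17 (adjusted p = 0.468).

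The signals sent to melanocytes gave the following values. Edn2, a ligand of endothelin receptors, had 21.78 and 18.53 TPM in NFIB/X-dKO, 20.26 and 33.30 in NFIB-cKO, 13.96 and 14.09 in NFIX-cKO, and 3.93 and 11.64 in WT. All 4 NFIB-deleted libraries were above the others, and the difference of 1.13 ± 0.30 did not pass (adjusted p = 0.127). Without WT 82 it was 1.47 and passed (adjusted p = 0.0278). Kitl, the ligand of Kit, had 16.06 and 18.37 TPM in NFIB/X-dKO, 21.61 and 14.02 in NFIB-cKO, 15.16 and 12.89 in NFIX-cKO, and 16.46 and 13.60 in WT (difference 0.24 ± 0.16, adjusted p = 0.541). The groups overlapped in Kitl. Edn3, the endothelin that acts on Ednrb in melanocyte development, had 1 and 0.53 TPM in NFIB/X-dKO, 0.04 and 0.10 in NFIB-cKO, 0.20 and 0.12 in NFIX-cKO, and was listed at 0 in both WT libraries.

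Of 11 listed signal genes, 10 were measured and 7 tested, and 0 passed in NFIB-deleted against NFIB-retaining groups. Asip was not analysed here. In NFIB/X-dKO against WT, where 1.62% of all tested genes rose, 1 of the 7 did: Hgf, which encodes hepatocyte growth factor. Hgf had 5.22 and 3.33 TPM in NFIB/X-dKO and 0.49 and 0.55 TPM in WT (1.77 ± 0.26, adjusted p = 0.0194), and this call was lost without any 1 of these 4 libraries, at 1.51 to 2.03. It had 1.40 and 0.92 TPM in NFIB-cKO and 0.92 and 1.13 TPM in NFIX-cKO. Tgfb2, which encodes a TGF-beta ligand, had 15.30 and 17.16 TPM in NFIB/X-dKO, 11.35 and 11.10 in NFIB-cKO, 6.56 and 6.50 in NFIX-cKO, and 3.37 and 8.52 in WT. Its difference of 1.06 ± 0.24 between NFIB-deleted and NFIB-retaining groups did not pass (adjusted p = 0.0754). It passed without either WT library (adjusted p = 0.0362 without WT 34 and 0.00991 without WT 82). With the animal number series as a covariate both Tgfb2 (adjusted p = 0.0289) and Hgf (0.93, adjusted p = 0.0308) passed in this comparison.

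Among 5 genes for proteins that bind or cut GPNMB (Cd44, Adam10, Sdc4, Itgb1 and Itga5), 2 rose in NFIB-deleted against NFIB-retaining groups, where 1.48% of all tested genes rose. The list was chosen with earlier results of these data known, so this count is a description. Cd44, a hyaluronan receptor that binds GPNMB, had 226.07 and 230.20 TPM in NFIB/X-dKO, 199.76 and 273.41 in NFIB-cKO, 137.29 and 135.41 in NFIX-cKO, and 82.94 and 106.19 in WT. The groups did not overlap, and the difference was 1.02 ± 0.13 (limma, adjusted p = 0.0124). The call was lost after median-of-ratios scaling (0.91, adjusted p = 0.0622) and without either NFIB/X-dKO library.

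Adam10, the protease that sheds GPNMB from human cells, had 31.04 and 30.68 TPM in NFIB/X-dKO, 30.13 and 26.04 in NFIB-cKO, 21.20 and 18.82 in NFIX-cKO, and 17.01 and 15.56 in WT. The difference was 0.68 ± 0.10 (adjusted p = 0.0243), and the call was lost without any 1 of 5 libraries (both NFIB/X-dKO, both NFIB-cKO and NFIX-cKO 88), at differences of 0.62 to 0.73. Sdc4, a syndecan that binds GPNMB, differed by 0.42 ± 0.10 (adjusted p = 0.0820), Itgb1 by 0.41 ± 0.10 (adjusted p = 0.103) and Itga5 by -0.09 ± 0.17 (adjusted p = 0.850). These 3 did not pass, though Sdc4 did with the number series as a covariate (adjusted p = 0.0480).

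**Figure D5:**
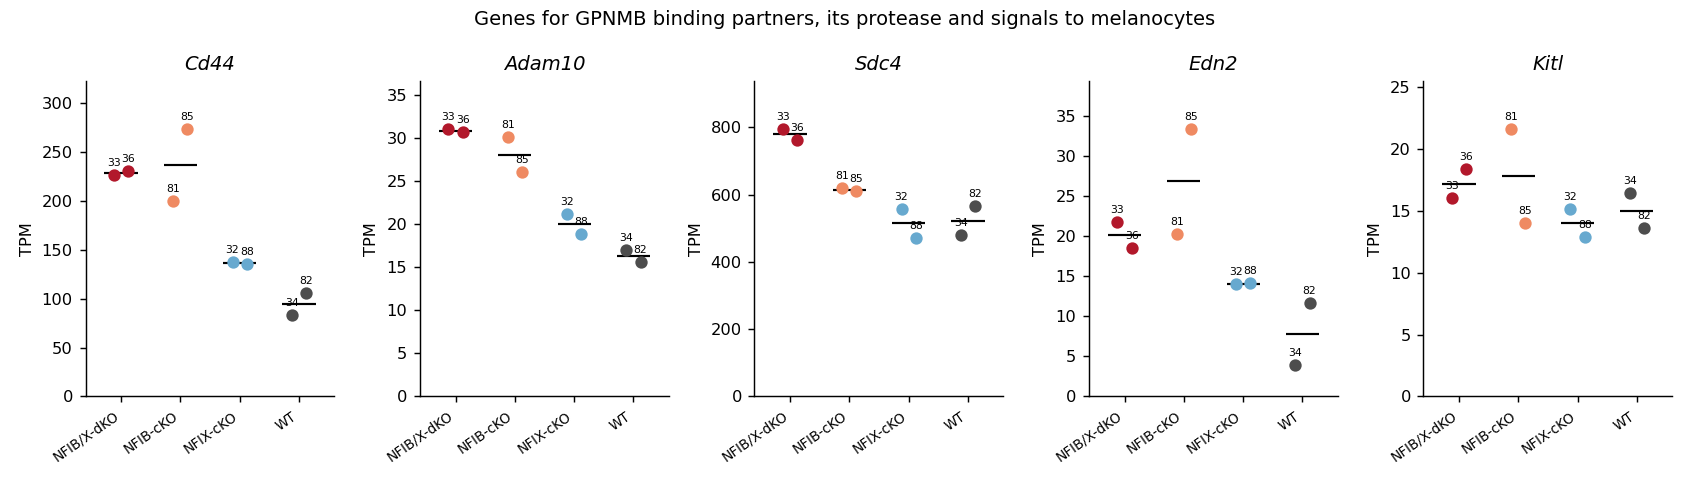
TPM of Cd44, Adam10, Sdc4, Edn2 and Kitl in each of the 8 libraries, on linear axes that start at 0, with the animal number beside each point and a bar at the mean of 2 libraries. The NFIB-deleted libraries lie above the NFIB-retaining ones in Cd44 (199.76 to 273.41 against 82.94 to 137.29 TPM), Adam10, Sdc4 and Edn2, and overlap them in Kitl.

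MITF belongs to a family with TFEB, TFE3 and TFEC, which drive lysosomal genes, and GPNMB is among their known targets. Of 36 genes of this family and of the lysosome, 32 were tested and 0 passed in NFIB-deleted against NFIB-retaining groups, with a median difference of 0.16 beside 0.10 over all genes. Tfeb ran from 17.43 to 21.60 TPM and Tfe3 from 15.64 to 23.49 TPM over the 8 libraries, and Tfec was at 0 in 6 of them. Wipi1, an autophagy gene, had the smallest p of the list, with 5.87 and 7.75 TPM in NFIB/X-dKO, 10.84 and 9.75 in NFIB-cKO, 4.23 and 4.54 in NFIX-cKO, and 4.45 and 6.51 in WT (0.67 ± 0.16, adjusted p = 0.0875). NFIB/X-dKO 33 lay under WT 82 in it, and with the number series as a covariate it passed (adjusted p = 0.0326). The protease gene Ctsl differed by 0.44 ± 0.14 (adjusted p = 0.190) and the lysosomal membrane gene Lamp1 by 0.32 ± 0.13 (adjusted p = 0.319).

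Markers of other cells that could carry Gpnmb or the pigment genes were read in the same libraries. Of 18 macrophage and dendritic cell markers, 11 stayed under 1 TPM in every library. Their sum was 100.8 to 106.4 TPM in NFIB/X-dKO, 86.5 to 96.6 in NFIB-cKO, 81.2 to 118.1 in NFIX-cKO and 90.4 to 105.9 in WT, so the groups overlapped. Among these low markers, Lyz2, C1qb and Trem2 reached at most 0.14 TPM, C1qc was at 0 in 7 libraries, and Csf1r ran from 0.20 to 0.98 TPM. The sum came mostly from Acp5, Cd68 and Cd74. Acp5 ran from 27.16 to 50.41 TPM, Cd74 from 9.49 to 41.38 TPM and Cd68 from 6.41 to 30.01 TPM. H2-Aa ran from 3.80 to 20.48 TPM, Cd207 from 0.69 to 2.97 TPM and Cd14 from 0.83 to 1.90 TPM. Of the 6 tested, 0 passed in NFIB-deleted against NFIB-retaining groups, with a median difference of -0.33.

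Schwann cells share Sox10 with melanocytes. The 10 Schwann markers summed to 126.0 to 139.8 TPM in NFIB/X-dKO, 120.9 to 146.5 in NFIB-cKO, 69.2 to 112.8 in NFIX-cKO and 116.9 to 131.1 in WT, most of it Egr2 at 52.41 to 129.48 TPM. Of the 7 tested, 1 rose, Ncam1 (0.92 ± 0.17, limma, adjusted p = 0.0398), where 1.48% of all tested genes rose. It had 2.61 and 2.77 TPM in NFIB/X-dKO, 0.51 and 0.92 in NFIB-cKO, 0.56 and 0.30 in NFIX-cKO and 0.18 and 0.27 in WT. Ncam1 reached 1 TPM only in NFIB/X-dKO, so it entered the test through the group where it is high. Its call is therefore a description. The Ncam1 call was lost without any 1 of 7 libraries (all but NFIX-cKO 32), at 0.84 to 1.01, with no filter and with a pseudocount of 0.1. Mast cells carry Kit as well. Of 8 mast cell markers, 7 stayed under 1 TPM, and Cpa3, Fcer1a and Ms4a2 were at 0 in all 8 libraries. The sum was 0.99 to 1.70 TPM in NFIB/X-dKO, 0.30 to 0.35 in NFIB-cKO, 0.44 to 1.07 in NFIX-cKO and 0.72 to 2.55 in WT.

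The 8 genes of the fibroblast and dermal papilla list summed to 56.0 to 68.5 TPM in NFIB/X-dKO, 59.0 to 87.0 in NFIB-cKO, 26.2 to 42.4 in NFIX-cKO and 24.8 to 25.7 in WT. The sum came mostly from Col1a1 and Col1a2, the only 2 tested genes. Both encode chains of type I collagen, and they differed in opposite directions. Of them 1 rose (1.48% of all tested genes rose): Col1a1, with 53.32 and 65.13 TPM in NFIB/X-dKO, 77.31 and 55.09 in NFIB-cKO, 14.63 and 8.27 in NFIX-cKO and 12.21 and 16.65 in WT (2.22 ± 0.21, adjusted p = 0.00497). Col1a2 had 2.17 and 2.81 TPM in NFIB/X-dKO, 9.22 and 3.26 in NFIB-cKO, 10.60 and 33.56 in NFIX-cKO and 11.76 and 8.01 in WT (-1.61 ± 0.41, adjusted p = 0.108), and did not pass. Without NFIX-cKO 32 its difference was -2.01 and passed (adjusted p = 0.0399), and without NFIX-cKO 88 it was -1.22. The other 6 stayed under 1 TPM in every library, with Dcn at 0.09 to 0.34 TPM, Pdgfra at 0.02 to 0.17 TPM and Lum at 0 in 6 libraries. Endothelial markers summed to 5.59 to 5.89 TPM in NFIB/X-dKO, 6.28 to 6.60 in NFIB-cKO, 5.63 to 6.28 in NFIX-cKO and 5.27 to 5.82 in WT, and 6 of 8 stayed under 1 TPM, with Cdh5 at 0 in 7 libraries. The stem cells' own markers moved too: of 12 follicle stem cell genes 2 fell with NFIB deletion (0.991% of all tested genes fell), Lhx2 by 0.88 ± 0.11 (adjusted p = 0.0104) and Lgr5 by 0.98 ± 0.14 (adjusted p = 0.0211) on the log2 scale. The Lhx2 call was lost without any 1 of the NFIB-deleted libraries and the Lgr5 call without either WT library, NFIX-cKO 88 or either NFIB/X-dKO library. The part of any of these lists in the values of Gpnmb or of the pigment genes was not tested.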

How the data were processed

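RNA was sequenced as paired ends from 8 libraries of sorted follicle stem cells. The authors deposited TPM for all 8 and, for the 5 libraries with gene tables, expected counts and mean transcript lengths. Reads were processed with RSEM 1.2.30 and Bowtie2 2.2.9 on mm10 (GRCm38), per the submitters' processing notes. Groups and animal numbers came from the titles.

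Differences in log2(TPM + 1) were tested in R 4.3.3 with limma 3.58.1, all 8 libraries being in 1 fit (4 residual degrees of freedom), a variance trend and Benjamini-Hochberg adjustment, two-sided, at an adjusted p under 0.05. Genes needed 1 TPM in 2 libraries, which left 15434. Differences on this scale understate the change of low genes. Expected counts, rounded to whole numbers, were compared between NFIB/X-dKO and NFIX-cKO, which had counts for both libraries, with edgeR 4.0.16 (quasi-likelihood, TMM, filterByExpr, 18349 genes) and DESeq2 1.42.0. Steps were tested on simulated data.

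Libraries carry different animal numbers, so p-values measure the spread between animals. The 10 members and all gene lists were chosen with earlier results of these data known, so counts of list genes beside the share of all genes are descriptions. Named genes were the members, the 10 most like Gpnmb, the 10 most like the melanosome genes, and from each list the smallest p, the most abundant and those past the test. Gene coordinates came from GENCODE.

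The result of 1 gene of a marker list is not reported here.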

Additional observations from a re-analysis of the deposited data

How the results depend on the processing

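The count of pigment genes past the test was 0 in 105 of 109 alternatives (another pseudocount, other filters, median-of-ratios scaling, only the compared groups, number series as covariate or within series, each library left out, and DESeq2). Leaving out 1 library at a time gave 0 to 1 between NFIB-cKO and WT, 0 to 2 for NFIB-deleted against NFIB-retaining groups and 0 to 1 (Tyrp1, without NFIX-cKO 32) in the edgeR counts. With the compared groups only it was 1 between NFIB/X-dKO and NFIB-cKO (Pmel, lower), and there the Gpnmb difference was 0.41 and passed. All 102 alternative values of the 7 tested pigment genes for NFIB-deleted against NFIB-retaining groups were above 0.

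With the series covariate the Gpnmb difference was 4.19 between NFIB/X-dKO and WT, 2.70 between NFIB-cKO and WT and 3.36 between NFIB/X-dKO and NFIX-cKO. Within the 30s it was 4.12 between NFIB/X-dKO and WT, 3.43 between NFIB/X-dKO and NFIX-cKO and 3.78 for NFIB-deleted against NFIB-retaining groups. Within the 80s it was 2.78 between NFIB-cKO and WT and 2.29 for NFIB-deleted against NFIB-retaining groups. Without 1 library at a time it ran from 3.19 to 4.12 between NFIB/X-dKO and WT, 2.78 to 3.71 between NFIB-cKO and WT and 2.21 to 3.43 between NFIB/X-dKO and NFIX-cKO. The cause of these shifts was not tested.

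Counts over all genes moved by over 1.5 times. Between NFIB/X-dKO and WT 445 genes passed, 192 with the compared groups only, 270 with no filter and 38 to 580 without 1 library. Between NFIB-cKO and WT 111 passed, 29 with no filter, 200 with the covariate and 13 to 152 without 1 library. For NFIB-deleted against NFIB-retaining groups 382 passed, 210 with no filter, 1214 with the covariate and 63 to 368 without 1 library. Between NFIB/X-dKO and NFIB-cKO 35 passed, and 2573 with the compared groups only. Fits within 1 number series left 1 residual degree of freedom and called few genes, which says nothing about stability. No such fit exists between NFIB/X-dKO and NFIB-cKO or the non-additive contrast. Scaling moved the median of all genes for NFIB-deleted against NFIB-retaining groups by about 0.10 on the log2 scale. No paired analysis was possible because no animal number is shared between groups. With 2 animals a group, only large differences can pass, and the depth behind 3 libraries is unknown.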
